A study of Homo sapiens with 6 samples.

Results

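The H3T11ph profiles of control and PKM2 knockdown MDA-MB-231 cells were compared region by region. The members were all regions of both deposited H3T11ph peak lists on chromosomes 1 to 22, 77412 of the 999395 regions in the 6 lists of the series, of which 41692 came from the control list (NC) and 35720 from the knockdown list (PKM2-KD). Each region was placed at a gene end (any base within 1 kb of either end of a protein-coding gene), in a gene body or between genes, on its chromosome and in its 1 Mb bin. Regions whose width (end minus start) was at least 2 times that of the narrowest NC region are called wide, in both lists alike, and all others narrow.

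MDA-MB-231 is an established line of triple-negative breast cancer cells. NC cells are labelled wild type and PKM2-KD cells carry a PKM2 knockdown. The study's methods describe both stable lines made with lentiviral shRNA, with a scrambled control, and transient siRNA against PKM2, with a negative control (NC), and neither they nor the labels say which was used here. CUT&Tag, in which an antibody brings the Tn5 transposase to the chromatin it binds so that nearby DNA is cut out and sequenced, was run with an antibody to histone H3 phosphorylated at threonine 11. There was 1 library per group, so nothing below is a test between conditions, and each interval is a 95% interval that covers counting error only. The lists hold no expression values, so the knockdown itself was not checked here.

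PKM2 is the M2 form of pyruvate kinase, which makes pyruvate in the last step of glycolysis. A part of it can enter the nucleus, where it is reported to act as a protein kinase that phosphorylates histone H3 at threonine 11 (H3T11ph) at promoters of growth genes. Histone marks at promoters usually cover one or a few nucleosomes on either side of a transcription start. Satellite repeats at centromeres, by contrast, hold few genes and are hard to map with short reads.

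The promoters below hold bases of the wide regions that led the comparison by enrichment over background, and are printed so that the place of the mark at the start can be seen. All are 250 bases before to 50 bases after a RefSeq start in GRCh38.p14, written 5′ to 3′ on the strand of the gene. Capitals are bases inside the region of the list named, and for AP4B1 they are bases inside the regions of both lists. RPL24 (chr3:101686669-101686968, minus strand) and ZNF708 (chr19:21329361-21329660, minus strand) had a wide region in NC, CEP120 (chr5:123423354-123423653, minus strand), ARHGAP24 (chr4:85474900-85475199, plus strand) and DAGLB (chr7:6447905-6448204, minus strand) in PKM2-KD, and AP4B1 (chr1:113904979-113905278, minus strand) in both.
RPL24: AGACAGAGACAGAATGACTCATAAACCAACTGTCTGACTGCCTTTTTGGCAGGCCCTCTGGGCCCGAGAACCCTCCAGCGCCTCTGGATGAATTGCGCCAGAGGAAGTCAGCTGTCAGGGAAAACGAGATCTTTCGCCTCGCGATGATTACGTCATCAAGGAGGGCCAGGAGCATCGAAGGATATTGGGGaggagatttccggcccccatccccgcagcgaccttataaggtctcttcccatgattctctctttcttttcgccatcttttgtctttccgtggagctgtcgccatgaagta
ZNF708: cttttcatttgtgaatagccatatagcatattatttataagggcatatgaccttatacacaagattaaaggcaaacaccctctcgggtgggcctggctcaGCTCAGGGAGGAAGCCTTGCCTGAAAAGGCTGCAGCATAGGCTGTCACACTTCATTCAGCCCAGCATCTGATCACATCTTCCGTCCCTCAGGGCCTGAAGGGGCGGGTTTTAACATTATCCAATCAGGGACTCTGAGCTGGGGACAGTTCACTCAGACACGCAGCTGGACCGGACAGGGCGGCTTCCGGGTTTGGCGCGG
CEP120: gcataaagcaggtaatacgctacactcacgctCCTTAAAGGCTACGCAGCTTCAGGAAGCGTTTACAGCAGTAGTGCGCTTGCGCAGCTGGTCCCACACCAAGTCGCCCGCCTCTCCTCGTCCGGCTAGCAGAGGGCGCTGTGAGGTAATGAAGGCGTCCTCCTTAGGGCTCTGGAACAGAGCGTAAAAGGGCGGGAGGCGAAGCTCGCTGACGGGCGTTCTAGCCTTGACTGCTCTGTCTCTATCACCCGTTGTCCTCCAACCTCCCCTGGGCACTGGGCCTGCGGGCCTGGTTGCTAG
ARHGAP24: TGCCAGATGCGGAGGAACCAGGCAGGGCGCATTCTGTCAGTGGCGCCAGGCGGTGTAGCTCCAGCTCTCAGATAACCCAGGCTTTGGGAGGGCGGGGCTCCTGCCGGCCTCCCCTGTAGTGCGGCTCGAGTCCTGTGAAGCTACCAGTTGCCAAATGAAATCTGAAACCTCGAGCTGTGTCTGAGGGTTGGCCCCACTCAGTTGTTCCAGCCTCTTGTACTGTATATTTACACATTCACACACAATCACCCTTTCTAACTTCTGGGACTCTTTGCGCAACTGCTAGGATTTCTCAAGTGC
DAGLB: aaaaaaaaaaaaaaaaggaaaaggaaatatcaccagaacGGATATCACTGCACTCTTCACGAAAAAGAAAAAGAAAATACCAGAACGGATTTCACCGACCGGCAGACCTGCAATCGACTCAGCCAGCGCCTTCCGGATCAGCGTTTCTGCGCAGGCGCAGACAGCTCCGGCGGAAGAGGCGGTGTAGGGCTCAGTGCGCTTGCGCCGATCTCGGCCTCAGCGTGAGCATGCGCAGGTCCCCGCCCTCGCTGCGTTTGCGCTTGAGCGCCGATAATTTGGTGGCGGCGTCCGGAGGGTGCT
AP4B1: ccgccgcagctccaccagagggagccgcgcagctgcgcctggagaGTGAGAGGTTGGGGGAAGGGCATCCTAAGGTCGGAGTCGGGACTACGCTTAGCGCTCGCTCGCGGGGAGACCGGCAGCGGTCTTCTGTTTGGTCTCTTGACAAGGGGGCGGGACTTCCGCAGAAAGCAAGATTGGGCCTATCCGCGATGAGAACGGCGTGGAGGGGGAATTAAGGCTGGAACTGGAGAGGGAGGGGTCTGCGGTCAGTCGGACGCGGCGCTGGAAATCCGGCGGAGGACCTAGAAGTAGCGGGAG
Of the 300 bases, 190 lay inside the region at RPL24, 200 at ZNF708, 268 at CEP120, 300 at ARHGAP24, 261 at DAGLB and 255 at AP4B1. In these promoters the marked bases reached the start itself at ZNF708, CEP120, ARHGAP24, DAGLB and AP4B1, and stopped short of it at RPL24.

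PKM2-KD had fewer regions than NC, and the difference depended on where regions lay and how wide they were. Among narrow regions, 37689 were in NC and 33850 in PKM2-KD, which is 89.8% of NC (88.5 to 91.1). At gene ends the narrow regions numbered 2728 in NC and 2837 in PKM2-KD, or 104% (98.7 to 110). In gene bodies they numbered 15484 and 14070, or 90.9% (88.8 to 93.0). Between genes they numbered 19477 and 16943, or 87.0% (85.2 to 88.8). The gene ends were thus the only class in which narrow regions were not fewer in PKM2-KD, and there the interval includes 100%.

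Wide regions numbered 4003 in NC and 1870 in PKM2-KD, or 46.7% of NC (44.2 to 49.4). The wide regions at gene ends were 580 and 375 (64.7%, 56.8 to 73.6), those in gene bodies 1006 and 648 (64.4%, 58.4 to 71.1), and those between genes 2417 and 847 (35.0%, 32.4 to 37.9). Width is not measured alike in both lists, however. The narrowest region was 111 bp in NC and 91 bp in PKM2-KD, so the same width in bp is 2 times the narrowest in NC and 2.44 times in PKM2-KD. With wide set at 2 times the narrowest width of each list (182 bp in PKM2-KD), wide regions at gene ends numbered 580 in NC and 593 in PKM2-KD (102%, 91.2 to 115). Those in gene bodies numbered 1006 and 1067 (106%, 97.3 to 116), and those between genes 2417 and 1290 (53.4%, 49.9 to 57.1). The lower number of wide regions at gene ends and in gene bodies was therefore present at a fixed width and not at a width scaled to each list, while that between genes was present at both. Among regions with at least 20 fragments at the summit, the outcome depended on the width used. At the fixed width, wide ones between genes numbered 1055 in NC and 665 in PKM2-KD (63.0%, 57.2 to 69.5). Those at gene ends were at 70.6% (61.7 to 80.8) and those in gene bodies at 75.8% (67.6 to 85.0). With the scaled width, 1055 in NC and 1005 in PKM2-KD lay between genes (95.3%, 87.4 to 104). In gene bodies there were then 679 and 870 (128%, 116 to 142), and in all 2244 and 2435 (109%, 102 to 115).

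**Figure D1:**
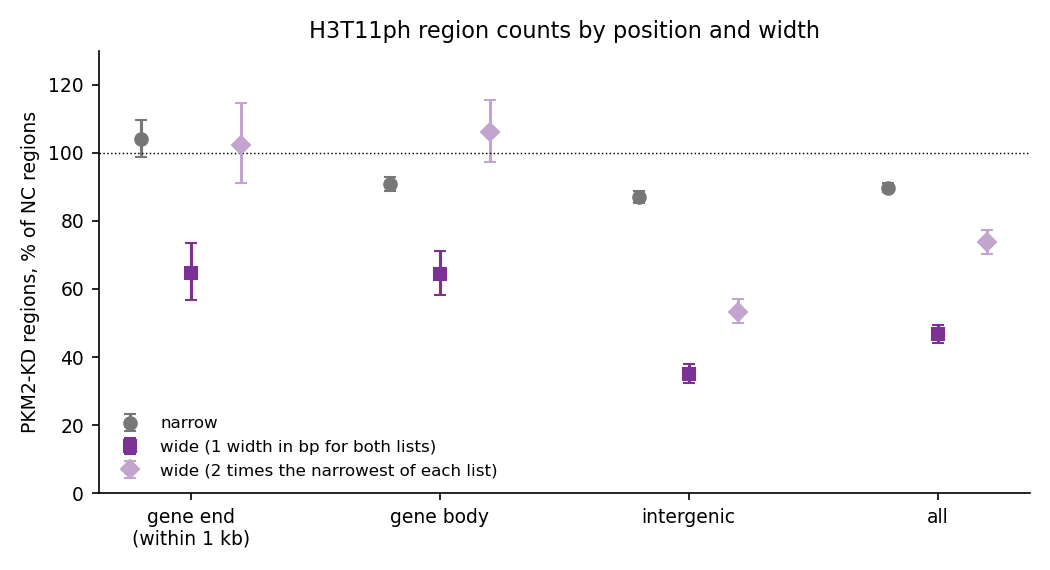
Number of H3T11ph regions in PKM2-KD as a percent of the number in NC, by position, for narrow regions, wide regions at 1 width in bp for both lists, and wide regions at 2 times the narrowest width of each list (bars, 95% counting intervals). The dotted line marks equal numbers. Wide regions at gene ends sit at 64.7% with the first width and at 102% with the second, and wide regions between genes sit below 100% with both.

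As a share of each list, gene ends held more of the regions in PKM2-KD. They held 7.24% of narrow NC regions (6.98 to 7.50) and 8.38% of narrow PKM2-KD regions (8.09 to 8.68), against 2.41% of the bases of these chromosomes. For wide regions the shares were 14.5% (13.4 to 15.6) and 20.1% (18.3 to 21.9). Within bands of like fragment number at the summit, the intervals of the narrow gene end shares of both lists overlapped. Gene bodies held 41.1% and 41.6% of narrow regions and 40.7% of bases, so narrow regions lay in gene bodies about as often as bases do. Wide regions lay there less often, at 25.1% in NC and 34.7% in PKM2-KD. The gene end share of wide regions moved with regions far from genes: without the longest gene-free stretch of each chromosome it was 19.9% in NC (18.5 to 21.4) and 21.3% in PKM2-KD (19.5 to 23.3), and these intervals overlap.

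The depth of the libraries was close as far as the lists show it. For MACS2, the fold and the p-value of a region together fix the height of the fragment pileup at its summit, and this height was recovered for 99.995% of the NC and 99.977% of the PKM2-KD regions tried. Dividing the commonest background by the width of the narrowest region gave 3.35 fragments per kb in NC and 3.42 in PKM2-KD. Median summit pileup was 27 fragments in NC and 33 in PKM2-KD, and the median fold over background was 16.0 and 21.4. Among narrow regions, the lower number in PKM2-KD lay at low pileup. Narrow regions with a pileup under 20 numbered 13536 in NC and 8616 in PKM2-KD (63.7%, 62.0 to 65.4), and those of 20 and over numbered 24153 and 25234 (104%, 103 to 106). At gene ends, narrow regions of 20 and over were more frequent in PKM2-KD, 2366 against 2023 (117%, 110 to 124), and those under 20 less frequent, 471 against 705 (66.8%, 59.5 to 75.1). Wide regions at the fixed width were fewer in PKM2-KD on both sides of this limit. Under 20 they numbered 1759 in NC and 330 in PKM2-KD (18.8%, 16.7 to 21.1). At 20 and over they numbered 2244 and 1540 (68.6%, 64.3 to 73.2).

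By height, narrow PKM2-KD regions made up 57.3% of NC at a pileup of 5 to below 10, 69.6% at 10 to below 20, 94.9% at 20 to below 40, 116% at 40 to below 80 (113 to 120) and 107% at 80 to below 160 (98.4 to 117). Wide regions made up 18.4% of NC at 5 to below 10, 18.3% at 10 to below 20, 36.6% at 20 to below 40, 67.8% at 40 to below 80 and 110% at 80 to below 160 (95.3 to 127). These bands end at 160 and leave out regions with a −log10 p of 200 or more, for which no height was sought. Heights were tried for 41429 of 41692 NC regions and for 35327 of 35720 PKM2-KD regions. The regions left out by the limit on p were thus more numerous in PKM2-KD, and the bands do not compare the highest regions. The names of the regions carry a processing tag that ends in "rd_del" in NC and in "rd_del2" in PKM2-KD. What the tag stands for is not given in the sources used here, and its part in the numbers of low regions was not tested.

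**Figure D2:**
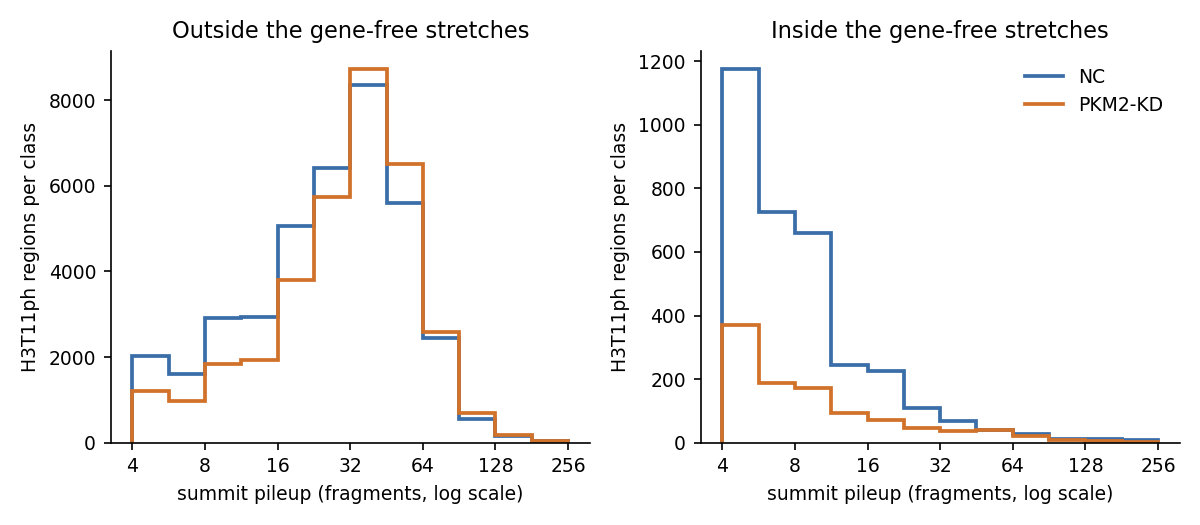
Number of H3T11ph regions in each class of summit pileup (fragments, log scale) in NC and PKM2-KD, outside and inside the longest gene-free stretch of each chromosome. Regions for which no pileup was sought are not counted. Outside, PKM2-KD lies below NC under about 32 fragments and above it from there to 128, and inside it lies below NC at low pileup, where both lists have a median of 7.

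The longest stretch without any RefSeq gene on each chromosome held a large share of the difference. On most human chromosomes this stretch lies at the centromere. Bases are counted by position, and positions where no read can map were not taken out, here or in the base shares above. By that count the 22 stretches add up to 159.6 Mb, or 5.55% of the bases. They held 3313 NC regions and 1064 PKM2-KD regions (32.1%, 30 to 34.4), and of the wide ones 1094 and 112 (10.2%, 8.43 to 12.4). The stretches held 7.95% of NC regions and accounted for 2249 of the 5972 fewer regions in PKM2-KD, or 37.7%, and for 46.0% of the fewer wide regions. In each of the 18 stretches with at least 20 NC regions the PKM2-KD number was lower, from 8.75% of NC on chromosome 9 to 80.6% on chromosome 16, although the interval on chromosome 16 reached 131%.

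The regions were gathered in a few of the stretches. The stretch of chromosome 1 (chr1:121571889-143299517) had 572 NC and 241 PKM2-KD regions, that of chromosome 5 (chr5:45696381-50396191) 528 and 202, and that of chromosome 19 (chr19:24179012-27681071) 506 and 167. Together they held 48.5% of the NC regions in stretches. On chromosome 6 (chr6:58121086-60281437) the numbers were 241 and 35, and on chromosome 7 (chr7:57868450-60991901) 258 and 43. Summed over all stretches, the NONO and H3K27ac lists did not share this direction. The same stretches held 2561 NONO regions in NC and 2569 in NONO-KD, and 3632 H3K27ac regions in NC and 4899 in PKM2-KD. Single stretches went both ways. H3K27ac regions were more numerous in PKM2-KD on chromosomes 1, 3, 5, 6, 10, 16 and 19, with the largest gains on 1, 5 and 19. In every other stretch that held any, they were fewer in PKM2-KD. NONO regions were more numerous in NONO-KD on chromosomes 1, 5, 6, 7, 11, 19 and 22, and equal on 14. In every other stretch that held any, they were fewer in NONO-KD. Those pairs of lists were not called alike, so their numbers stand here only side by side with those of H3T11ph. Regions in stretches were low in both H3T11ph lists, with a median pileup of 7 in each against 29 and 34 elsewhere.

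Outside the stretches, narrow regions were at 92.7% of NC (91.4 to 94.2) and wide regions at 60.4% (57.0 to 64.1). With wide at 2 times the narrowest width of each list, wide regions outside the stretches numbered 2909 in NC and 2791 in PKM2-KD (95.9%, 91.1 to 101). Between genes but outside the stretches they numbered 1323 and 1131 (85.5%, 79.0 to 92.5). Intergenic wide regions of NC also lay farther from genes, at a median of 436 kb from the nearest gene end against 44.0 kb in PKM2-KD, and outside the stretches at 40.8 kb against 32.2 kb.

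By chromosome, narrow regions were fewer in PKM2-KD on 21 of 22 chromosomes and equal on chromosome 14, with 1193 in each list. The lowest percentage was on chromosome 19, with 1691 in NC and 1345 in PKM2-KD (79.5%, 74.0 to 85.4), which was also the chromosome with the most narrow NC regions per Mb (28.9). For 15 chromosomes the interval lay below 100%. Wide regions were fewer on all 22 chromosomes, from 103 against 25 on chromosome 21 (24.3%, 15.7 to 37.4) to 75 against 62 on chromosome 14 (82.7%, 59.1 to 116). On chromosome 5 the stretch made most of the difference: wide regions were at 34.7% of NC on the whole chromosome and at 66.2% outside it, and narrow ones at 92.8% and 98.6%. On chromosome 21 no H3T11ph region lay in the stretch (chr21:498025-5010453), so the percentage of wide regions was the same with and without it. The bin chr21:8000001-9000000 lies outside that stretch, also holds no protein-coding gene, and had 42 wide NC and 16 wide PKM2-KD regions. Taking out the stretch therefore did not take out all gene-free sequence of this chromosome.

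**Figure D3:**
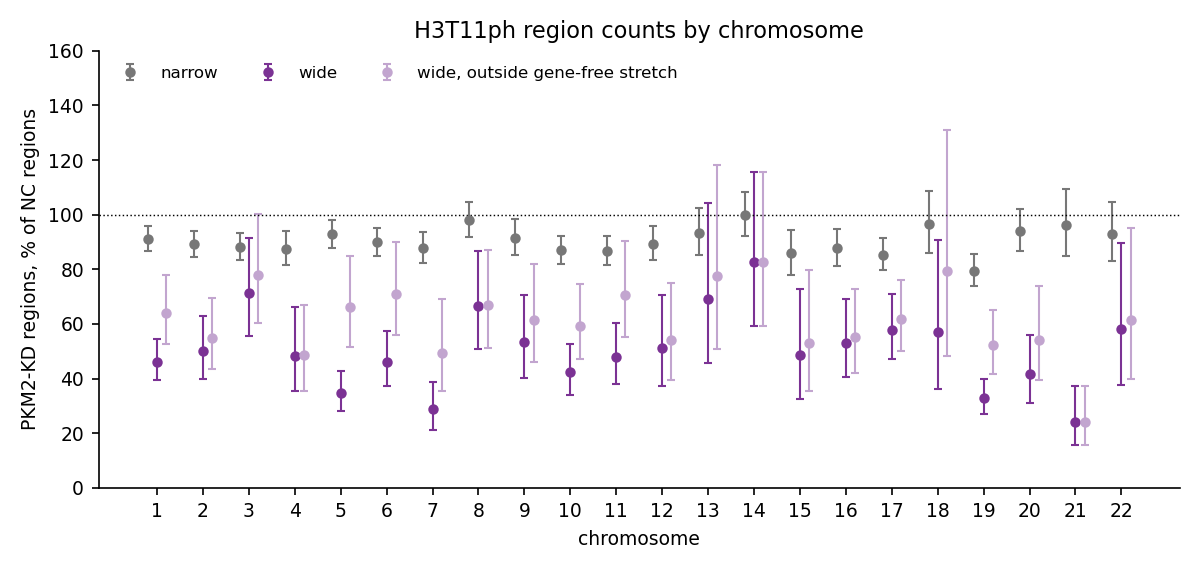
PKM2-KD regions as a percent of NC regions on each of chromosomes 1 to 22 for narrow regions, wide regions, and wide regions outside the longest gene-free stretch (bars, 95% counting intervals). Narrow regions sit between 79.5% and 100% and wide regions between 24.3% and 82.7%, and chromosomes 5, 6, 7, 11 and 18 show the widest gaps between the wide values with and without the stretch.

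In bins of 1 Mb, the NC and PKM2-KD numbers went together over the 2780 bins with a region (Pearson's r = 0.70, Spearman's rho = 0.67). Bins share gene content, base composition and mappability, so the correlation is a description. Among the 1732 bins with at least 20 regions over both lists, 164 (9.47%) had at least 2 times fewer regions in PKM2-KD and 58 (3.35%) at least 2 times more. Among regions with a summit pileup of at least 20 the direction turned, with 40 bins lower and 69 higher. With regions of any pileup, 55 of the 1732 bins touch a gene-free stretch, and of these 37 were lower by that fold and 0 higher. Away from the stretches 127 of 1677 were lower and 58 higher, and the median bin there was at 91.7% of NC.

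The bins with the most NC regions lay in the stretches and hold no protein-coding gene. The bin chr1:124000001-125000000 had 214 NC regions, of which 76 were wide, and 72 PKM2-KD regions, of which 8 were wide. In chr19:26000001-27000000 the numbers were 209 and 73, and in chr5:49000001-50000000 they were 192 and 77. A bin at the edge of the chromosome 1 stretch differed from these: chr1:143000001-144000000, which holds the histone gene H3-7 and FAM72C, had 76 NC and 77 PKM2-KD regions. The lowest percentages were in chr9:44000001-45000000 (34 NC regions and 1 PKM2-KD region, 2.94%, 0.509 to 17.0) and in chr17:24000001-25000000 and chr17:25000001-26000000 (22 and 1 in each bin, 4.55%, 0.778 to 26.6).

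The highest percentages lay in bins with genes. In chr14:35000001-36000000, which holds NFKBIA, the inhibitor of NF-kappaB, the proteasome subunit gene PSMA6 and the signal recognition particle gene SRP54, there were 7 regions in NC and 20 in PKM2-KD (286%, 124 to 659). In chr1:246000001-247000000, with the methyltransferase gene SMYD3, there were 5 and 15 (300%, 113 to 794), and the same numbers were found in chr6:87000001-88000000, with the origin recognition gene ORC3. Of the PKM2-KD regions, 1 was wide in the chromosome 14 bin, 1 in the chromosome 1 bin and 0 in the chromosome 6 bin. Away from the stretches, the bin with the most regions in each list was chr21:8000001-9000000, which holds no protein-coding gene. It had 96 regions in NC, of which 42 were wide, and 65 in PKM2-KD, of which 16 were wide. Next came gene-dense bins, chr11:65000001-66000000 (74 and 58), the bin of the calpain gene CAPN1 and the ribosomal protein gene FAU, and chr19:1000001-2000000 (84 and 56), that of the kinase gene STK11 and the redox enzyme gene GPX4.

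**Figure D4:**
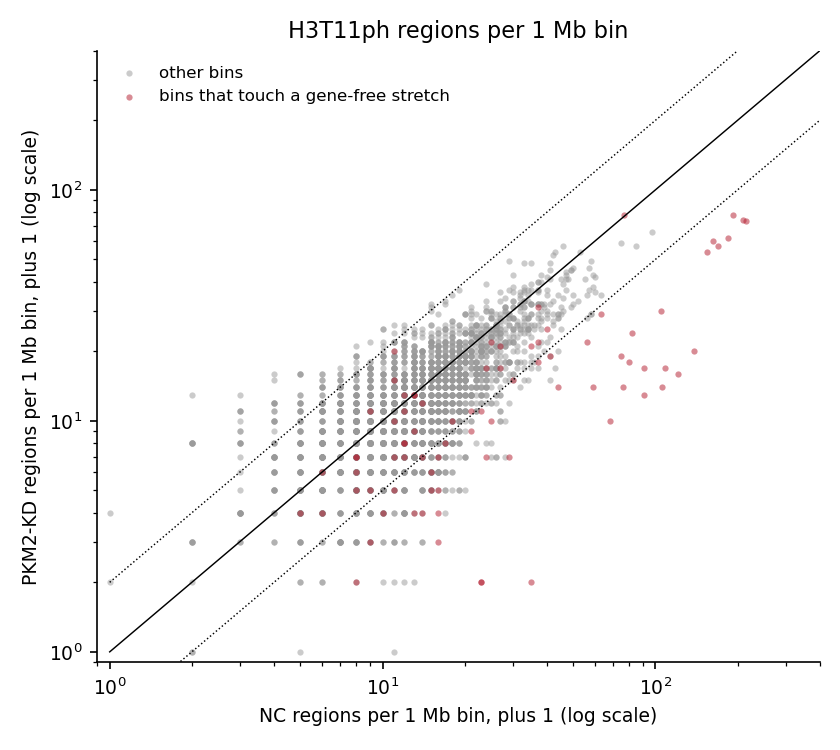
Number of H3T11ph regions per 1 Mb bin in NC and in PKM2-KD, each plus 1, on log scales, for bins that touch a longest gene-free stretch and for all other bins. The solid line marks equal numbers and the dotted lines a 2-fold difference, and the bins with over 100 NC regions all touch a stretch and lie below the lower dotted line.

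Regions at gene ends lay more often at the transcription start than at the other end of the gene. RefSeq starts were matched for 15101 of 19126 protein-coding genes, or 82.0% of those on the 21 chromosomes with promoters in the table used here, and regions of chromosome 8 are left out of this count. In NC, 478 of 3866 wide regions (12.4%, 11.4 to 13.4) lay within 1 kb of a start and 89 (2.30%, 1.87 to 2.82) within 1 kb of the other end of a gene. In PKM2-KD, 314 of 1779 wide regions (17.7%, 15.9 to 19.5) lay at a start and 50 (2.81%, 2.14 to 3.69) at the other end. Narrow regions lay at starts in 5.46% (NC) and 6.83% (PKM2-KD) of cases and at the other end in 1.90% and 1.93%. Region centres were most frequent in the 250 bp just before the start, which held 5.25% of wide NC regions and 8.71% of wide PKM2-KD regions.

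**Figure D5:**
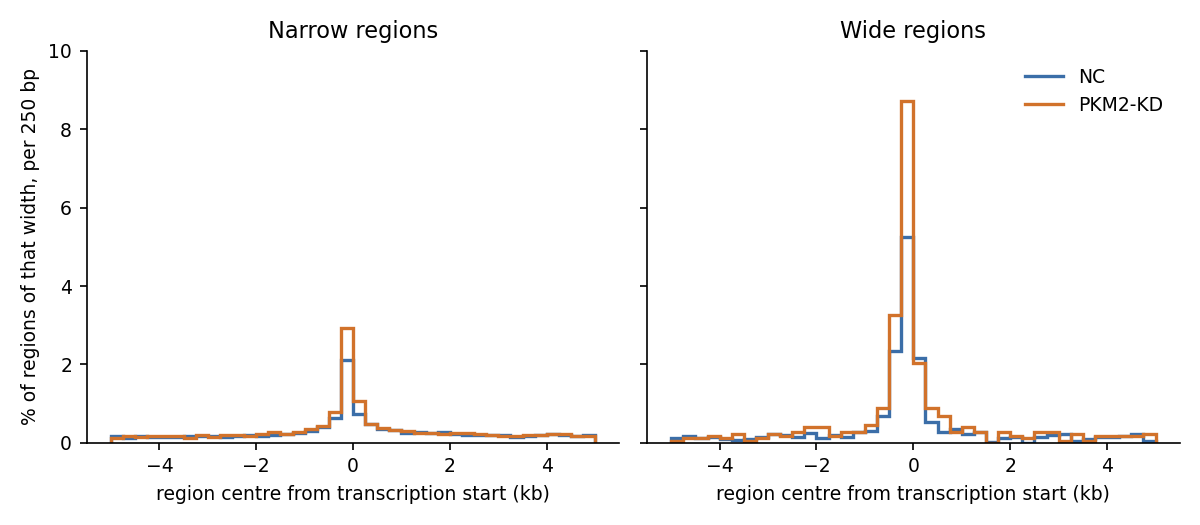
Share of narrow and wide H3T11ph regions by the distance of the region centre from the nearest RefSeq transcription start (kb, negative before the start), per 250 bp, in NC and PKM2-KD. In both lists the peak lies in the 250 bp before the start, at 2.12% and 2.92% of narrow and at 5.25% and 8.71% of wide regions.

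Promoters with a region held more CG pairs than those without, whichever list and width the region had. Over 21156 promoters of 300 bases, the median number of CG pairs was 21. It was 27 in the 65 promoters with a wide region in both lists, 27 in the 267 with a wide region in NC and none of any width in PKM2-KD, and 26.5 in the 162 with the reverse. It was also 27 in the 2273 promoters with narrow regions alone, against 19 in the 18197 promoters with no region. A GC box (GGGCGG on either strand) was found in 56.6% of all promoters, in 79.4% of those wide in NC alone, in 79.6% of those wide in PKM2-KD alone and in 74.9% of those with narrow regions alone. The CCAAT box (CCAAT, either strand) was found in 34.4%, 40.4% and 47.5%, and the AP-1 motif (TGACTCA, either strand) in 3.98%, 2.25% and 4.94%. The TATA box (TATAAA, either strand) was found in 9.51% of all promoters, in 20 of those wide in NC alone (7.49%) and in 4 of those wide in PKM2-KD alone (2.47%). The RPL24 promoter above holds the AP-1 and CCAAT letters and no GC box, and those of CEP120 and ARHGAP24 hold the GC box and none of the other letters named here.

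Counted by gene, the lists were of similar size but named largely different genes. Of 19126 protein-coding genes, 3474 (18.2%) had a region of any width at an end in NC and 3373 (17.6%) in PKM2-KD. Genes with a region in NC alone numbered 2300 (12%), in both 1174 (6.14%) and in PKM2-KD alone 2199 (11.5%). For wide regions the numbers were 576 (3.01%) in NC alone, 126 (0.659%) in both and 324 (1.69%) in PKM2-KD alone. Absence at that width was often not absence of the mark: 235 of the 576 genes (40.8%) had a narrow region at an end in PKM2-KD, and 124 of the 324 (38.3%) had one in NC. With wide at 2 times the narrowest width of each list, 532 genes had a wide region in NC alone and 527 in PKM2-KD alone.

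Among genes with a wide region in NC alone, that at KRT80, a type II keratin gene, had the highest fold over background. The region (chr12:52192171-52192426, 256 bp) had a fold of 97.1, and in PKM2-KD a region of 98 bp with a fold of 39.4 lay in front of it on the chromosome (chr12:52191949-52192046). A region at chr9:125233619-125233903 with a fold of 83.2 lay within 1 kb of ends of both HSPA5, which encodes the endoplasmic reticulum chaperone BiP, and RABEPK, a Rab9 effector gene, and PKM2-KD had no region at an end of either. Its centre lay 7582 bp after the nearest start of HSPA5 and 33219 bp after that of RABEPK, so it marks where these genes run towards each other and not a promoter. At RPL24, a ribosomal protein gene, the NC region of 246 bp had a fold of 79.0 and its centre 184 bp before the start. In PKM2-KD the region there ended at the same base (chr3:101686888-101687024), measured 137 bp and had a fold of 54.3. At ZNF708, a zinc finger gene, the NC region of 243 bp had a fold of 79.0 at 29 bp before the start, and PKM2-KD had none.

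Of the genes with a wide region in PKM2-KD alone, CEP120, a centriole assembly gene, led with a fold of 141 in a region of 276 bp centred 80 bp before the start. NC had no region at its ends. The same held for ARHGAP24, a Rac GTPase-activating gene, with a fold of 87.7 over 636 bp centred 14 bp before the start, and for LAPTM5, a lysosomal membrane gene, with a fold of 84.6 at chr1:30756699-30757011, centred 919 bp after the start. DAGLB, a diacylglycerol lipase gene, had 4 regions in PKM2-KD, of which 1 was wide with a fold of 80.9, and 0 in NC. At EIF4G1, a translation initiation factor gene, both lists held an overlapping region near the end away from the start, with centres at 14430 bp (PKM2-KD) and 14465 bp (NC) after the nearest start. It measured 299 bp with a fold of 82.5 in PKM2-KD and 131 bp with a fold of 4.03 in NC, although the NC summit held 50 fragments, so the local background differed.

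Among genes with wide regions in both lists, LOC124903573 had a fold of 91.5 in NC and 50.6 in PKM2-KD. At SLC20A1, a phosphate transporter gene, the fold was 60.1 in NC over 520 bp and 50 in PKM2-KD over 247 bp. AP4B1, an adaptor complex subunit gene, and DCLRE1B, a nuclease gene that acts at telomeres, share 1 region between their divergent starts, with a fold of 48.9 over 504 bp in NC and 87.7 over 305 bp in PKM2-KD. PABPC1, a poly(A)-binding protein gene, had 47.3 over 554 bp and 65.0 over 478 bp. The fold was thus higher in NC at SLC20A1 and LOC124903573 and higher in PKM2-KD at the other genes, and the width was larger in NC at all of these but LOC124903573.

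For the enzymes the study centres on, PKM itself, the gene of PKM2, had no region at an end in either list. KAT5, which encodes the acetyltransferase TIP60, had 1 narrow region in NC (chr11:65711867-65711995, pileup 63, fold 26.8, centred 321 bp before the start) and none in PKM2-KD. That pattern, a region in NC alone, was shared by 12% of all genes. Of 9 lysine acetyltransferase genes, 3 had a region in NC and 3 in PKM2-KD (33.3%, 12.1 to 64.6 in each), an interval that includes the 18.2% and 17.6% of all genes. EP300, the p300 gene, had overlapping ones in both, with a pileup of 57 in NC and 32 in PKM2-KD. KAT6A had 1 in each list and KAT7 had 1 in PKM2-KD alone.

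Of 16 glycolysis genes on these chromosomes, 3 had a region in NC (18.8%, 6.59 to 43.0) and 8 in PKM2-KD (50%, 28.0 to 72.0). All genes stood at 18.2% in NC and 17.6% in PKM2-KD. The NC interval includes the former, the PKM2-KD interval lies above the latter, and the intervals of both lists overlap. LDHA, the lactate dehydrogenase A gene, had a narrow region in NC with a fold of 101 centred 66 bp before the start and 2 in PKM2-KD, the higher with a fold of 44.5. TPI1, the triose phosphate isomerase gene, had 2 regions in NC and 0 in PKM2-KD. ALDOC, an aldolase gene, and GPI, the glucose phosphate isomerase gene, had regions in PKM2-KD alone.

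Of the genes where H3T11ph has been reported in other cells, MYC had 2 regions at its ends in NC, the higher with a fold of 9.53, and 4 in PKM2-KD, the highest with a fold of 56.3. These folds belong to opposite ends of the gene, chr8:127735984-127736159 in NC and chr8:127743139-127743251 in PKM2-KD, so they do not compare the same site. CCND1, the cyclin D1 gene, had 1 in PKM2-KD with a pileup of 45 and 0 in NC. CCNB1 and CDK1 had none in either list. The study lists 9 further genes as lowered by both knockdowns, a list that it chose on expression in these cells. Of these, 2 had a region in NC (22.2%, 6.32 to 54.7) and 4 in PKM2-KD (44.4%, 18.9 to 73.3). All genes stood at 18.2% in NC and 17.6% in PKM2-KD. The NC interval includes the former, the PKM2-KD interval starts just above the latter, and the intervals of both lists overlap. CCN2, a matricellular protein gene, had 4 in NC, of which 1 was wide with a pileup of 140 at 16 bp before the start, and 1 in PKM2-KD with a pileup of 45. MCAM and RCN1 had 1 each in PKM2-KD alone, and MATN2 had 1 in NC alone.

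The larger gene families differed in how often they carried the mark, and within each the intervals of both lists overlapped. Of 77 cytosolic ribosomal protein genes, 29 had a region at an end in NC (37.7%, 27.7 to 48.8) and 34 in PKM2-KD (44.2%, 33.6 to 55.3), and 17 had one in each list. RPL4, RPL23A and RPL27A had wide ones in both lists. Replication-dependent histone genes stood at 31 of 69 in NC (44.9%) and 30 in PKM2-KD (43.5%). Of these 21 were the same genes, and H4C14, H4C15, H2AC20, H2AC21 and H2BC21 had wide regions in both. Both families lay well above the 18.2% and 17.6% of all genes, and neighbouring histone genes can share a region. Zinc finger genes of chromosome 19 were at 44 of 246 in NC (17.9%) and 36 in PKM2-KD (14.6%), near the values of all genes, and ZNF700 had the highest fold of the family, 115 in PKM2-KD with none in NC. Olfactory receptor genes, which are silent in most tissues, were at 15 of 389 (3.86%) and 11 (2.83%) with 0 in both lists. Keratin genes were at 3 of 55 and 2 of 55.

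Regions inside gene bodies were spread over long genes. Of the 577 genes with at least 10 body regions over both lists, whose median length was 418 kb against 24.5 kb for all genes, 114 (19.8%) had at least 2 times fewer in PKM2-KD and 56 (9.71%) at least 2 times more. PTPRN2, a phosphatase-like gene of secretory vesicles, had the most, with 43 in NC and 24 in PKM2-KD (55.8%, 34.0 to 91.5). PARD3, a cell polarity gene, had 30 and 17 (56.7%, 31.5 to 102). KIAA1217 (30 and 26), FRMD4A (25 and 29) and the synaptic scaffold gene DLG2 (25 and 24) had close numbers.

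The lowest percentage among these genes was at BRF1, a subunit gene of the RNA polymerase III factor TFIIIB, with 13 regions in NC, of which 6 were wide, and 0 in PKM2-KD. Taking 3 counts as the limit that 0 allows, it was at least 4.33-fold lower in PKM2-KD. The NONO lists each held 12 body regions at this gene in NC and NONO-KD, and the H3K27ac lists 33 and 38, so the gene was not empty in the other PKM2-KD list. CDH18, a cadherin gene, had 0 in NC and 13 in PKM2-KD, at least 4.33-fold higher, all of them narrow. SHTN1 had 10 in NC and 1 in PKM2-KD (10%, 1.65 to 60.6) and ACOXL 9 and 1 (11.1%, 1.82 to 67.8). LTBP1, a latent TGF-beta binding protein gene, and PIEZO2, a mechanosensitive channel gene, each had 1 and 9 (900%, 147 to 5494).

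Few regions were at the same place in both lists. Of narrow NC regions, 1364 of 37689 (3.62%, 3.44 to 3.81) overlapped a PKM2-KD region by at least 1 bp, and of wide NC regions 1052 of 4003 (26.3%, 24.9 to 27.7). At gene ends the shares were higher, 12.2% (11 to 13.5) of narrow and 41% (37.1 to 45.1) of wide regions. Taken from the other side, 5.11% of narrow and 41.9% of wide PKM2-KD regions overlapped an NC region. In the gene-free stretches, 95 of the 112 wide PKM2-KD regions (84.8%, 77.0 to 90.3) overlapped an NC region, whereas 202 of the 1094 wide NC regions (18.5%, 16.3 to 20.9) overlapped one of PKM2-KD. The wide regions of PKM2-KD that remained there thus lay mostly where NC had one.

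Wide NC regions found again were higher and lay more often at gene ends than those not found again. Their median pileup was 49 against 18, and 22.6% (20.2 to 25.2) against 11.6% (10.5 to 12.8) lay at a gene end. They also overlapped a region of H3K27ac, an acetylation of histone H3 at active promoters and enhancers, in the NC list more often, 63.2% (60.3 to 66.1) against 37.3% (35.6 to 39.1). Of the 2951 not found again, 892 lay in a gene-free stretch. In PKM2-KD, wide regions found and not found in NC lay at gene ends in 20.8% and 19.5%, with overlapping intervals.

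Overlap with the other profiles was read within a list only, because the H3K27ac lists (NC, 556239 regions, and PKM2-KD, 208488 regions) were not called alike. In NC, 60.2% (56.1 to 64.1) of wide regions at gene ends overlapped an H3K27ac region, 47.2% in gene bodies and 39.0% between genes. Narrow regions did so in 39.8%, 17.0% and 14.5%. In PKM2-KD the shares were 75.2%, 75.2% and 67.4% for wide and 54.5%, 20.8% and 17.1% for narrow regions. NONO, the RNA- and DNA-binding protein that the study links to PKM2, overlapped 32.1% (28.4 to 36.0) of wide NC regions at gene ends, 26.5% in gene bodies and 21.1% between genes. For narrow NC regions the NONO share was 12.8% at gene ends, and the intervals for gene bodies (3.71 to 4.32) and between genes (3.79 to 4.35) overlapped. Wide NC regions thus had the same order from gene ends to intergenic for both profiles, and in PKM2-KD the gene end and gene body shares of wide regions did not differ beyond their intervals.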

How the data were processed

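CUT&Tag for H3T11ph was run on MDA-MB-231 NC and PKM2-KD cells, 1 library each. The authors deposited 1 peak list per library. In the deposited lists the score is a whole number derived from −log10 q, the fold is the ratio of the summit pileup to the local background, and p and q are −log10 values. The submitters' processing notes name FastQC 0.11.9, cutadapt 1.18, SAMtools 1.3.1, MACS2 2.1.1.20160309 and the build hg38, in no stated order. The aligner, any control library and the handling of duplicates are not given in the sources used here. A lower threshold, a fragment length or a duplicate filter that differs between lists would alter region numbers and widths.

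Each row was taken as 1 region, on chromosomes 1 to 22, and every region is accounted for. Genes were 19126 protein-coding genes of a RefSeq table (GRCh38.p14), and a gene end went before a gene body. Summit pileup was recovered as the whole number of fragments for which fold and −log10 p agree within 0.002, for rows with a −log10 p below 200. Rows above that limit count as a pileup of 20 and over. Depth cannot be had from read totals, which the lists do not hold. Shares carry 95% Wilson intervals, and a ratio of counts the interval that follows from one (statsmodels 0.14.6, Python 3.11.15). The scripts were tested on simulated data. No p-value was computed.

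The members and gene lists were chosen with earlier results of these data known. Named genes were KAT5 and PKM, the 5 genes with the highest fold among those with a wide region in NC alone, in PKM2-KD alone and in both, the 5 with the most body regions, the 3 with the lowest and the 3 with the highest ratio, and up to 4 members of each gene list. Bins were named by the same kind of rule. H3-7, FAM72C, the genes of bins and members with wide regions in both lists were named after their values were seen, as were the bins away from gene-free stretches. Alternatives were a stricter q, a pileup minimum, other widths, windows, gene sets, overlaps and bins.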

Additional observations from a re-analysis of the deposited data

Results flagged for a closer look

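The deposited H3T11ph lists also hold regions on the sex chromosomes, which the comparison above does not use. There were 1034 in NC and 910 in PKM2-KD, or 88.0% of NC (80.5 to 96.2), and 85 and 25 of them were wide. They stand out only in that they lie outside the chromosomes compared.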

How the results depend on the processing

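No paired analysis was possible because NC and PKM2-KD had 1 library each. The number of narrow regions in PKM2-KD as a percent of NC, 89.8% as reported, was 94.7% at a −log10 q of at least 5, 104% at a pileup of at least 20, where the direction turned, 86.9% with wide at 2 times the narrowest width of each list and 92.7% without the gene-free stretches. For wide regions, 46.7% as reported, it was 54.8% at the stricter q, 68.6% at that pileup, 38.6% with wide at 3 times the narrowest NC width, 73.7% with the width scaled to each list, 60.4% without the stretches and 95.9% with both of these changes. The scaled width and the removal of the stretches were chosen after seeing the data.

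The gene end share was higher in PKM2-KD than in NC under each of the 7 alternatives tried for narrow and the 8 tried for wide regions. For wide regions the intervals of both lists overlapped at a pileup of at least 20, at 3 times the narrowest NC width and without the stretches. Within bands of pileup the order of the wide shares went both ways. In NC and PKM2-KD they were 15.7% and 13.3% at 20 to below 40, 22.4% and 25.0% at 40 to below 80, and 35.8% and 28.4% at 80 to below 160. Narrow NC and PKM2-KD regions stood at 8.38% and 9.38% at a pileup of at least 20, 11.9% and 13.2% with a window of 2.5 kb and 12.5% and 14.2% with all genes of the table. The narrow NC share was 7.69% without the stretches and the narrow PKM2-KD share 7.99% with the scaled width. Wide regions stood at 22.7% and 23.4% at that pileup, 11.99% and 14.9% at 3 times the narrowest NC width, 18.8% and 24.4% at 2.5 kb and 22.7% and 30.6% with all genes. The wide NC share was 17.7% at the stricter q and 19.9% without the stretches.

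NC regions found again made up 3.28% of narrow ones at the stricter q, 2.39% when 50% of the region had to overlap and 3.39% without the stretches. Of wide ones they made up 32.0% at a pileup of at least 20, 38.0% at 3 times the narrowest NC width, 10.8% with 50% overlap and 29.2% without the stretches. Bins of 1 Mb with at least 2 times fewer regions in PKM2-KD, 164 as reported, numbered 106 at the stricter q, 40 at a pileup of at least 20, where bins with more (69) outnumbered them, and 45 when a bin needed 40 regions, with 6 bins higher. Genes with a wide region at an end in NC alone numbered 189 at 3 times the narrowest NC width and those in PKM2-KD alone 77, and the latter numbered 527 with the scaled width. The other 29 of 71 values stayed within the interval or within 1.5 times the count reported. Summit pileup limits what can be said of low regions, whose numbers depend on the threshold, and with 1 library per group the spread between libraries is unknown.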
